A study of Mus musculus with 10 samples.

Results

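The respiratory complex I genes of the liver were described in biopsies taken before treatment. Members were all genes of the deposited table whose symbol begins with Nduf. These were 39 of the 10913 genes listed, namely 33 complex I subunits, 5 Ndufaf assembly factors and Ndufa4, which carries the family name but is a subunit of complex IV. The biopsies came from 10 wild-type (WT) C57BL/6 mice fed a western diet (WD) for 12 weeks, and no mouse had received a drug at that time. In this diet model of fatty liver, 3 mice later received vehicle and 7 later received the farnesoid X receptor agonist obeticholic acid (OCA). Of these 7, 4 were classed after treatment as OCA non-responders and 3 as OCA responders by a histological activity score. Age was not stated, and all groups shared strain, diet and biopsy time. The groups are named by what was done or found later, which does not make their livers alike at biopsy. For all its mice, the paper gives a higher mean baseline activity score in the OCA than in the vehicle group, without a significant difference. Baseline scores of the 10 mice were not used here. Each biopsy is 1 mouse, and p-values set a group difference against the spread between biopsies of different mice.

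Complex I (NADH:ubiquinone oxidoreductase) oxidizes NADH, passes the electrons through flavin and iron-sulfur clusters to ubiquinone, and pumps protons across the inner mitochondrial membrane. Its matrix arm holds the NADH-oxidizing N module and the quinone-reducing Q module, and its membrane arm holds the proton-pumping parts, here divided into a proximal and a distal part. Assembly factors join these modules and are not part of the finished enzyme. In the liver the enzyme serves the oxidation of fatty acids, and a fatty liver is often studied for its mitochondrial function. The core subunits encoded by mitochondrial DNA were not analysed here, since none of them was listed.

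Each biopsy had between 40432530 and 76529328 counts in total. The table lists genes with a count of at least 1 in all 10 biopsies, so Nduf genes with a count of 0 in any biopsy could not be members. Of 6 hepatocyte markers, 6 were listed, with a summed level of 1762 to 2795 FPKM (fragments scaled to gene length and sequencing depth) per biopsy. No marker of T and NK cells, B cells, neutrophils, muscle or adipocytes was listed. Summed cholangiocyte markers, 3 of 5 listed, were 19.6 to 24.7 FPKM in vehicle, 8.24 to 20.3 in non-responders and 8.19 to 8.45 in responders. Summed endothelial markers, 4 of 4 listed, were 17.9 to 24.5 FPKM in vehicle, 17.8 to 25.8 in non-responders and 14.7 to 17.1 in responders. For Kupffer cells and macrophages, with 4 of 5 markers listed, the sums were 2.75 to 3.14 FPKM, 2.24 to 3.09 and 1.98 to 2.31. These 3 sums were lower in every responder than in every vehicle mouse. So was the erythroid sum, with 1 of 3 markers listed (4.00 to 7.05 FPKM in vehicle, 3.26 to 3.68 in responders). Stellate sums, 5 of 5 listed, overlapped between these groups (108 to 156 and 84.4 to 112). Hepatocyte sums did too (2115 to 2748 and 1762 to 2547). On log2(FPKM + 1), the median difference of OCA mice from vehicle over all genes was also below 0, at -0.17. The part of these sums in the results was not tested. Rn45s, the ribosomal RNA precursor, took 3.70% to 6.87% of the counts in vehicle, 11.0% to 23.5% in non-responders and 16.3% to 25.7% in responders, so the share moved with the groups. In bulk tissue, fewer cells of a type and less RNA per cell cannot be told apart.

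The genes of the enzyme were not measured at a common level. Mean FPKM over the 10 biopsies, a level scaled to gene length, was 213 for Ndufb9, a small accessory subunit of the distal membrane arm. It was 198 for Ndufa6, an accessory subunit of the N module. At the other end were Ndufb4 of the distal membrane arm at 0.801, Ndufa11 of the proximal membrane arm at 0.273 and the assembly factor Ndufaf4 at 0.108. Among the 33 subunits, which form a single enzyme, the highest mean was 779 times the lowest. In all, 6 members had a mean over 100 FPKM and 9 had a mean under 2, against a median of 4.75 FPKM over all listed genes.

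**Figure D1:**
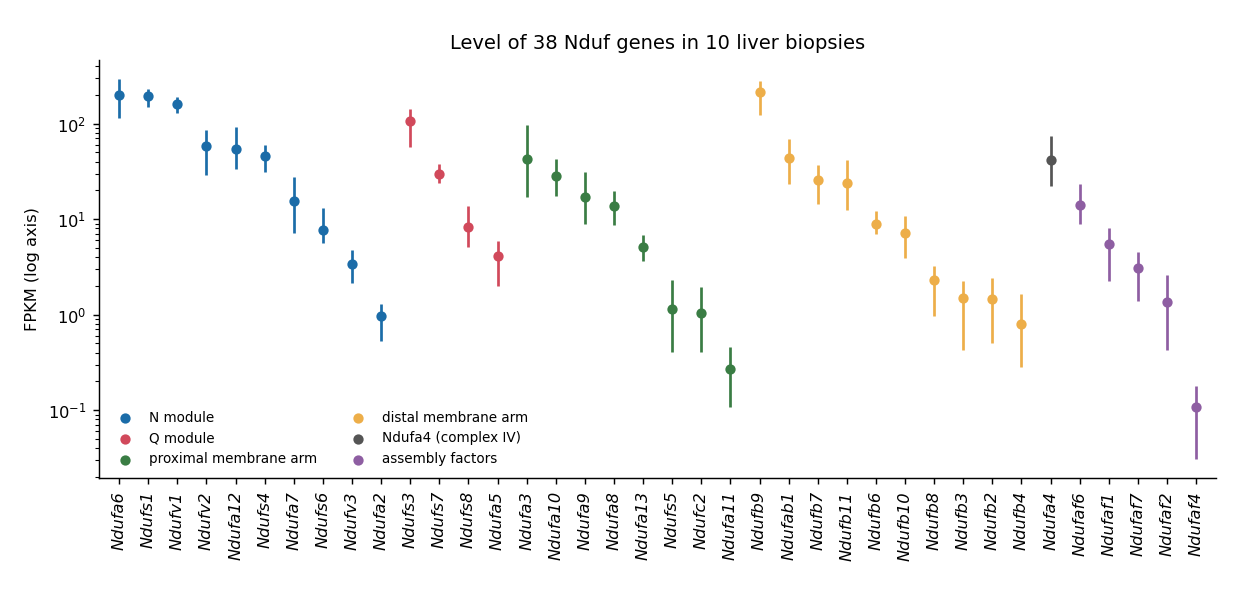
Level of 38 of the 39 members, in FPKM on a log axis. Points are means over 10 biopsies, lines run from the lowest to the highest biopsy, and genes are grouped by part of the enzyme, from 213 FPKM for Ndufb9 down to 0.108 for Ndufaf4.

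By part, the median level was highest in the N module, at 49.8 FPKM over 10 genes. It was 29.7 in the Q module (5 genes), 9.46 in the proximal membrane arm (8 genes), 8.05 in the distal membrane arm (10 genes) and 3.11 for the assembly factors (5 genes). The members near the bottom are measured on few reads, with 8 to 47 counts per biopsy for Ndufb4, 18 to 76 for Ndufa11 and 8 to 41 for Ndufaf4. Some levels are uncertain for another reason. By the GENCODE M21 annotation of GRCm38, 9 members have a near-identical copy elsewhere in the genome and 16 share exon sequence with another gene, 21 members in all. Ndufb4 has 2 pseudogene copies and Ndufa11 overlaps Vmac on the other strand. No source used here says whether counting used strand, and the part of these copies and overlaps in the levels was not tested.

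Levels varied between mice of a group by a median coefficient of variation of 22.2% over the members, which is that of all listed genes (22.2%). Ndufs1, the largest iron-sulfur subunit, varied by 8.79%. Ndufaf4 (47.1%) and Ndufb4 (41.4%) varied most, both on fewer than 50 counts. Summed over the members, the level was 1530 to 2031 FPKM in vehicle, 1145 to 1955 in non-responders and 1094 to 1493 in responders. As CPM (counts scaled to library size, with TMM factors) these sums overlapped, at 1698 to 2144, 1628 to 2215 and 1762 to 2114. Non-responder 4 and responder 1 held the lowest value of 8 and 9 members, and vehicle 1 of 13. The share of all listed genes that were lowest in these mice was not computed, so the counts say nothing particular to complex I. Non-responder 4 also had the highest Rn45s share of its group, 23.5%.

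The question for the pre-treatment liver is whether complex I genes differed between mice that later responded to OCA and those that did not. No member passed an adjusted p of 0.05 for responders against non-responders by edgeR's quasi-likelihood test, and no gene of the 10826 tested did (0%). At an unadjusted p under 0.05, Ndufs5 was higher, 1 of 39 members against 7.74% of all genes. Lower by the same rule were Ndufb11 and Ndufa3, 2 of 39 against 6.13%. DESeq2 called 2.42% of all genes and no member. The median log2 fold change of the 34 Nduf genes without Ndufaf was -0.14, with 23 lower and 11 higher, against -0.01 over all genes. Leaving out responder 1 gave -0.03, leaving out non-responder 4 gave -0.26, and a fit with the Rn45s share as a covariate gave 0.11.

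**Figure D2:**
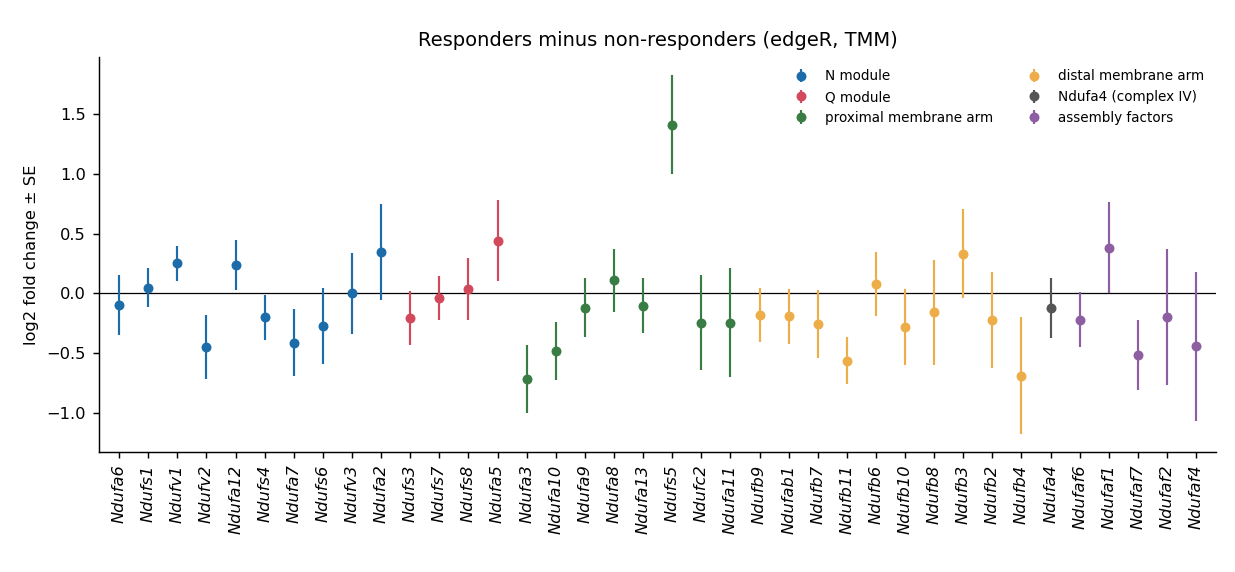
Log2 fold change of 38 members, responders (n = 3) minus non-responders (n = 4), with its standard error, from edgeR. Most points lie between -0.5 and 0.5, and Ndufs5 at 1.41 and Ndufa3 at -0.72 lie farthest out.

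In the N module 5 genes had a positive and 5 a negative fold change, with a median of -0.05. Ndufv1, which carries the flavin and the NADH site, was 271, 280, 279 and 231 CPM in non-responders and 281, 344 and 320 in responders. The groups did not overlap, but the difference was small (log2 fold change 0.25 ± 0.14 SE, edgeR adjusted p = 0.477). Across all genes 7.65% were higher and 6.64% lower in responders with no overlap, and among members these were 2 and 1. Its partner Ndufv2, an iron-sulfur subunit, had a fold change of the opposite sign (-0.45 ± 0.27, adjusted p = 0.492). Ndufa7, an accessory subunit, was 7.97, 8.39, 7.64 and 6.69 CPM in non-responders and 5.06, 4.29 and 7.90 in responders (-0.41 ± 0.28, adjusted p = 0.546). These groups overlapped through responder 3.

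In the Q module, where the electrons reach ubiquinone, the median was -0.04 over 5 genes. Ndufa5, an accessory subunit, had the largest fold change of the module (0.44 ± 0.34, adjusted p = 0.596). The core subunit Ndufs3 (-0.21 ± 0.23, adjusted p = 0.71) was within the spread between mice.

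The proximal membrane arm held the member farthest apart in each direction. Ndufs5, a small subunit on the intermembrane side, was 0.449, 0.533, 0.653 and 0.262 CPM in non-responders and 1.2, 1.35 and 1.28 in responders. All 3 responders lay above all 4 non-responders, at a log2 fold change of 1.41 ± 0.42 (edgeR adjusted p = 0.226). These values rest on 10 to 63 counts per biopsy, and 60.8% of the Ndufs5 transcript has a near-identical pseudogene copy. Ndufa3, a small membrane subunit, was 14.7, 18.9, 13.6 and 8.42 CPM in non-responders and 7.34, 9.10 and 8.84 in responders, and non-responder 4 lay among the responders (-0.72 ± 0.29, edgeR adjusted p = 0.314). Its exons overlap Tfpt on the other strand. Ndufa10, a subunit with a nucleoside kinase fold, was 48.5, 49.7, 35.4 and 25.8 CPM against 25.6, 27.8 and 32.2 (-0.48 ± 0.24, adjusted p = 0.418), again with non-responder 4 at the responder level.

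The promoters of Ndufa3, Ndufs5 and Ndufa5 are shown because these members had the 3 smallest p-values for responders against vehicle, given below. The windows run from 250 bases before to 50 bases after the RefSeq start on GRCm38.p6, in the direction of the gene. Capitals mark a match to the NRF1 motif GCGCANGCG, bound by nuclear respiratory factor 1, which is known for its role at respiratory chain genes. Ndufa3 lies at chr7:3617123-3617422 on the plus strand, Ndufs5 at chr4:123718137-123718436 on the minus strand and Ndufa5 at chr6:24527477-24527776 on the minus strand. Ndufa5 has a second, overlapping window with the same match. For 31 of the 36 windows of members, the bases after the start lie in an annotated transcript of the gene. Which windows these are is not given here.
Ndufa3: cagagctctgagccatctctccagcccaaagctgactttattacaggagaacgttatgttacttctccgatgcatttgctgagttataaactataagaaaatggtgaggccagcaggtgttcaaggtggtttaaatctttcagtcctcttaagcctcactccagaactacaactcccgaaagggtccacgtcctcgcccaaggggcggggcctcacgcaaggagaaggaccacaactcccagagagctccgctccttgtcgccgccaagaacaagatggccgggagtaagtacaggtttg
Ndufs5: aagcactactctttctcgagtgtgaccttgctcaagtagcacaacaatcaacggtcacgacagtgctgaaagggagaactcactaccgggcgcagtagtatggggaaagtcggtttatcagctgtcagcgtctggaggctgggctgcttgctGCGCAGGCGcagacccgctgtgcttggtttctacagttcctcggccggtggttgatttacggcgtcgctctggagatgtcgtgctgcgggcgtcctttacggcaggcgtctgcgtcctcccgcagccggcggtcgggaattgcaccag
Ndufa5: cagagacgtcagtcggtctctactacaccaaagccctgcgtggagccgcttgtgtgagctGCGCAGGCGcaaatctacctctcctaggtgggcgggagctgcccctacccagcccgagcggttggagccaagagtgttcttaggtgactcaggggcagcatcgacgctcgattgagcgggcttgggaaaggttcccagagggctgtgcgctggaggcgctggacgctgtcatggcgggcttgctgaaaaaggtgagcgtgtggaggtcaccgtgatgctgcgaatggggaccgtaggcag
The match began at position -98 in Ndufs5 and at -190 in Ndufa5, counted from the RefSeq start within the window shown. Counted from the RefSeq start within the second Ndufa5 window it began at -26. Ndufa3 held no match to the 3 motifs searched. On either strand the NRF1 motif was in the windows of 9 of the 34 members with a window (26.5%), against 15.7% of 8252 listed genes. The ETS motif CCGGAAG was in 5 of 34 (14.7%, against 20.5%) and the YY1 motif AANATGGCG in 6 of 34 (17.6%, against 6.42%). The NRF1 motif is nearly its own reverse complement, so that matches on both strands can overlap. These are matches of letters, not binding sites.

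In the distal membrane arm 8 of 10 genes had a negative fold change, with a median of -0.21. Ndufb11, an X-linked subunit, was 26.2, 22.8, 18.8 and 22 CPM in non-responders and 14.7, 17.2 and 13.5 in responders. The groups did not overlap (-0.56 ± 0.20, edgeR adjusted p = 0.267). Ndufb11 has a pseudogene copy over part of its transcript and overlaps Rbm10. Ndufb4 (-0.69 ± 0.49, adjusted p = 0.566) and Ndufb7 (-0.26 ± 0.28, adjusted p = 0.712) were within the spread between mice. Ndufb9, the member with the highest level, was 158, 175, 152 and 99.8 CPM in non-responders and 97.9, 155 and 133 in responders (-0.18 ± 0.22, adjusted p = 0.752).

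Of the 5 assembly factors, 4 had a negative fold change and none passed the test. Ndufaf7, a methyltransferase, was 9.87, 10.1, 8.23 and 8.58 CPM in non-responders and 9.08, 6.05 and 4.11 in responders, which overlap in responder 1 (-0.52 ± 0.29, adjusted p = 0.468). Part of its transcript (9.5%) is repeat-like and shared with 115 genes. Ndufaf1, which works in the assembly of the membrane arm, had a fold change of 0.38 ± 0.38 (adjusted p = 0.685). Ndufaf6, needed for early assembly, had -0.22 ± 0.23 (adjusted p = 0.694) and Ndufaf4 had -0.45 ± 0.63 (adjusted p = 0.782). Ndufa4 of complex IV was 17.1, 23.6, 17.1 and 13.4 CPM in non-responders and 13.4, 14.5 and 21.0 in responders (-0.12 ± 0.25, adjusted p = 0.862).

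The mice that later received OCA and those that later received vehicle had the same treatment up to the biopsy. Nevertheless, 129 of 10844 genes (1.19%) differed between them by edgeR, none of them a member. At an unadjusted p under 0.05, 8 of 39 members were higher (all genes 10.6%) and 4 were lower (all genes 8.61%). The 4 with the smallest p were Ndufa4, Ndufa5, Ndufa3 and Ndufa7. DESeq2 called 6 members, which were Ndufa5, Ndufb3 and Ndufa13 as higher and Ndufa3, Ndufa4 and Ndufa7 as lower, and it called 6.15% of all genes. A fit with 1 spread over all 10 biopsies called Ndufa3 and Ndufa5, 2 of 39 against 4.38% of all genes. Limma on log2(FPKM + 1) called Ndufa4 (all genes 1.7%). Without non-responder 2 edgeR called Ndufa4 (all genes 1.46%), and without non-responder 4 it called Ndufa5 (all genes 1.2%).

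Ndufa4 was 25.9, 33.8 and 28.9 CPM in vehicle and 13.4 to 23.6 in the 7 OCA mice. All OCA mice lay below all vehicle mice (-0.78 ± 0.20, edgeR adjusted p = 0.0766). Ndufa7 was 9.14, 13.1 and 14.0 CPM in vehicle and 4.29 to 8.39 in OCA mice, also without overlap (-0.81 ± 0.25, adjusted p = 0.109). Ndufa5 went the other way, with 1.01, 1.39 and 1.33 CPM in vehicle and 1.60 to 3.95 in OCA mice (1.23 ± 0.32, adjusted p = 0.0784). Groups without overlap were found for 5 members that were higher, against 5.51% of all genes, and for 2 that were lower, against 4.77%. The 5 were Ndufa5, Ndufa13, Ndufb2, Ndufb3 and Ndufc2.

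**Figure D3:**
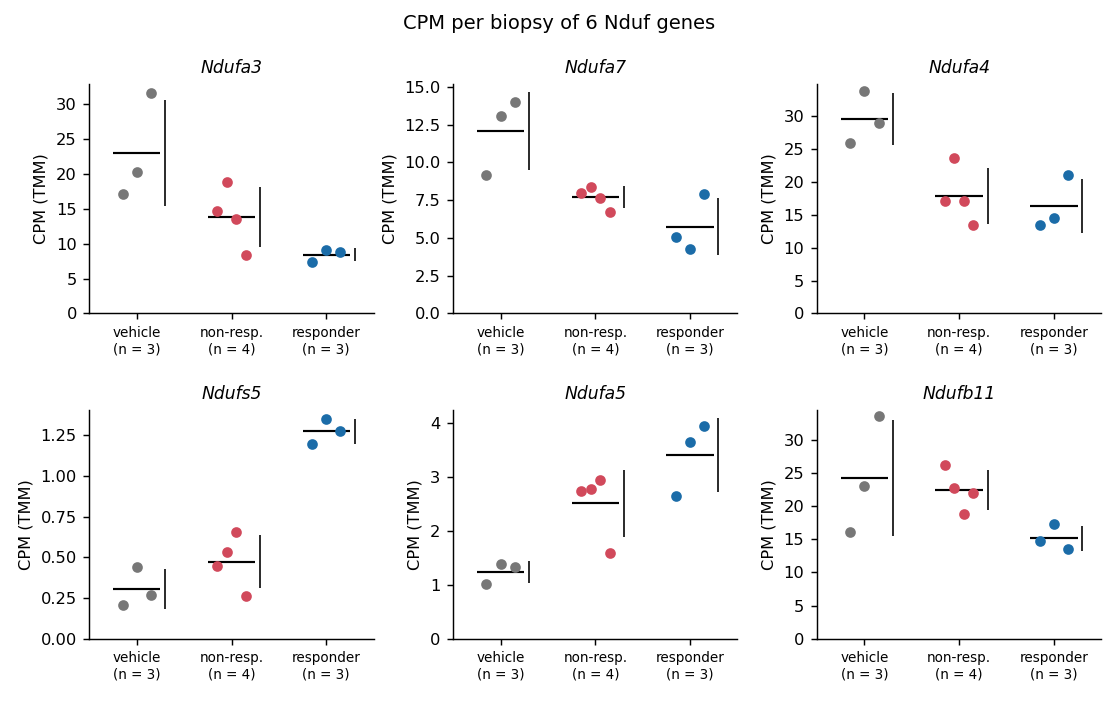
CPM (TMM-scaled) of 6 members in each biopsy of the vehicle, non-responder and responder groups. Points are biopsies, horizontal lines are group means and vertical lines are 1 SD on each side. Responders have the lowest mean for Ndufa3 and lie above all others for Ndufs5, and vehicle mice lie above all others for Ndufa4 and below all others for Ndufa5.

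Low-level and high-level members had different medians against vehicle, and the size of this gap varied with the processing. The 34 Nduf genes without Ndufaf were divided at their median level of 16.4 FPKM, a division chosen after the values were seen. Of the 17 below it, 14 had higher and 3 lower values in OCA mice, with a median log2 fold change of 0.63, and 7 were higher (all genes at that level 9.66%) and 1 lower (7.52%) at an unadjusted p under 0.05. Of the 17 above it, 5 had higher and 12 lower values, with a median of -0.08, and 1 was higher (13.2%) and 3 lower (11.8%) by the same rule. Over all genes tested, the medians below and above the same level were -0.00 and 0.01. The low-level median was 0.36 with a minimum count of 50, 0.32 on the authors' log2 values, 0.095 on log2(FPKM + 1) and 0.29 on log2(FPKM + 0.1), and the high-level medians were -0.07, -0.10, -0.34 and -0.35. No test of the gap was made. The low-level members included Ndufc2 (1.25 ± 0.41, adjusted p = 0.132), Ndufb3 (1.26 ± 0.39, adjusted p = 0.114) and Ndufa13 (0.63 ± 0.22, adjusted p = 0.144), all accessory subunits.

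**Figure D4:**
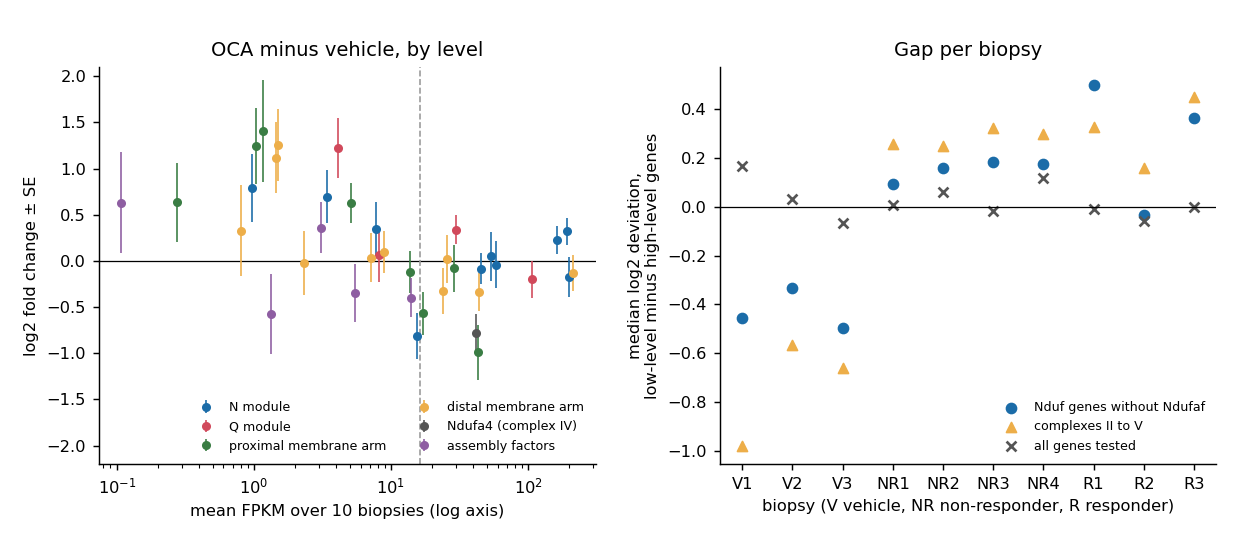
Left, log2 fold change of 38 members for OCA (n = 7) minus vehicle (n = 3) with its standard error, against mean FPKM on a log axis, with a dashed line at 16.4 FPKM. Right, for each biopsy, the median log2 deviation from the mean of 10 biopsies of genes below that level minus that of genes above it, for the Nduf genes without Ndufaf, for complexes II to V and for all genes tested. Vehicle mice lie below 0 for both respiratory chain groups, and all genes stay near 0.

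The values behind this gap can be given for each biopsy. The median log2 deviation from the mean of the 10 biopsies, low-level minus high-level genes, was -0.45, -0.33 and -0.49 in the vehicle mice. It was 0.09, 0.16, 0.18 and 0.18 in non-responders and 0.50, -0.03 and 0.36 in responders, so the vehicle mice lay below the other 7, of which responder 2 was near 0. For all genes it was between -0.07 and 0.17 with the groups overlapping. The 38 genes listed for complexes II to V divided likewise, from -0.98 to -0.57 in vehicle and from 0.16 to 0.45 in OCA mice. With 14 of them below and 24 above the level, their median log2 fold changes were 0.78 and -0.36. These genes were measured in the same mice and divided at the same level, and their copies and exon overlaps were not looked up.

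A near-identical copy or an exon overlap is found for 10 of the 17 low-level genes and for 9 of the 17 high-level genes. For OCA against vehicle, the median of these 10 low-level genes was 0.63, with 9 of 10 higher. For the 7 with neither it was 0.06, with 5 of 7 higher, and 3 higher and 1 lower (Ndufa7) at an unadjusted p under 0.05. Among these 7 were Ndufa5 and Ndufc2. For the 8 high-level genes with neither, the median was -0.06, with 3 higher and 5 lower. Without vehicle 1, the biopsy with the lowest value for 13 members, the median of the 17 low-level genes was 0.30. The Rn45s share did not overlap between vehicle (at most 6.87%) and OCA mice (at least 11.0%), so share and group cannot be told apart. In a fit with the share as a covariate the median was 1.01 for low-level and 0.53 for high-level genes. These values rest on extrapolation, and the part of the share in the pattern was not tested.

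The comparison of responders with vehicle gave the only members that passed the test. These were 2 of 39 members, against 4.52% of 10785 genes. Ndufa3 was lower, with 17.2, 20.3 and 31.7 CPM in vehicle and 7.34, 9.10 and 8.84 in responders (-1.46 ± 0.28, edgeR adjusted p = 0.0351). Ndufs5 was higher, with 0.208, 0.441 and 0.270 CPM in vehicle and 1.2, 1.35 and 1.28 in responders (2.05 ± 0.44, adjusted p = 0.0423). For both, no responder overlapped with a vehicle mouse. Leaving out any 1 of the 3 responders, vehicle 2 or vehicle 3 ended both calls, and leaving out vehicle 1 ended that of Ndufs5. With fewer mice any gene is harder to call, and the share of all genes called in these fits is not given here. The fold changes with a mouse left out were -1.63 to -1.16 for Ndufa3 and 1.84 to 2.39 for Ndufs5. With the Rn45s share as a covariate the fold change of Ndufa3 was -0.16 and that of Ndufs5 1.70, and neither passed. The share did not overlap between these groups, so this fit cannot tell share and group apart.

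At an unadjusted p under 0.05, 4 members were higher in responders than in vehicle (all genes 12.9%) and 5 were lower (all genes 13.1%). Groups without overlap were found for 10 members that were higher (all genes 16.3%) and 5 that were lower (all genes 16.4%). Ndufa5 was close to the threshold (1.45 ± 0.34, adjusted p = 0.0517), as was Ndufa4 (-0.86 ± 0.23, adjusted p = 0.0686). Other tools called more members and more of all genes. DESeq2 called 5 members (all genes 14.4%), limma on the authors' log2 values 5 (5.5%) and the fit with 1 spread 4 (8.56%). Limma on log2(FPKM + 1) and log2(FPKM + 0.1), which are not TMM-scaled, called 11 (18.5%) and 9 (16.7%). Ndufa3 and Ndufs5 were among the calls of each tool. For non-responders against vehicle no member passed, and 0.0462% of 10832 genes did. There, 7 members were higher (all genes 8.24%) and 3 lower (all genes 6.36%) at an unadjusted p under 0.05. DESeq2 called none of the members and 3.55% of all genes. These comparisons share the vehicle mice and are not independent. In non-responders against vehicle, the fold change of Ndufa3 was -0.72 ± 0.30 (adjusted p = 0.3) and that of Ndufs5 0.65 ± 0.46 (adjusted p = 0.555).

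The other complexes of the respiratory chain were compared between responders and non-responders in the same way. The median log2 fold change was -0.11 for complex II (4 genes), -0.12 for complex III (9 genes), -0.21 for complex IV (10 genes) and -0.18 for complex V (15 genes), near that of the Nduf genes, and none of these genes passed. Of 15 assembly helpers without an Nduf name, 7 were listed. For responders against non-responders 6 of these 7 had lower values, with a median of -0.38 and Timmdc1, an assembly factor of the membrane arm, at -0.51 ± 0.32 (adjusted p = 0.524). Against vehicle, the smallest p in OCA mice was that of Ecsit, an assembly factor that is also a signalling adaptor (0.87 ± 0.31, adjusted p = 0.163).

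Of 11 regulators of mitochondrial genes, 10 were listed. Ppargc1a, the coactivator PGC-1α, was 85.0, 76.2, 317 and 74.2 CPM in non-responders and 162, 704 and 752 in responders, which overlap through non-responder 3 (1.97 ± 0.62, edgeR adjusted p = 0.245). Its relative Ppargc1b was 14.7, 20.9 and 24.6 CPM in vehicle, 24.5, 29.6, 31.2 and 37.1 in non-responders and 39, 43.1 and 53.3 in responders. It was upregulated in responders against vehicle (1.16 ± 0.24, adjusted p = 0.0395), with no overlap, and against non-responders it did not pass (0.56 ± 0.19, adjusted p = 0.260). Without vehicle 2, vehicle 3 or any 1 responder its adjusted p was 0.0591 to 0.165, and it also did not pass with the Rn45s share as a covariate, with the replicate number as a block or by limma on either FPKM scale. The factors whose motifs were searched had small fold changes for responders against non-responders, at 0.07 for Nrf1, 0.06 for the ETS factor Gabpa and -0.25 for Yy1, and none passed.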

How the data were processed

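RNA of 10 liver biopsies was sequenced. Per the paper's methods and the labels, quality control used FastQC 0.11.7, trimming Trimmomatic 0.38, alignment to mm10 HISAT2 2.1.0 and quantification StringTie. For each gene the authors deposited a whole count, an FPKM value and a quantile-normalized log2(FPKM + 1) value. The deposited table also holds the authors' own comparisons, a signed fold score with p-values, which were not used. The labels name 2 library kits, and no source used here says whether counting used strand.

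Genes were chosen by symbol, and the members and gene lists were chosen with earlier results of these data known. Counts were tested with edgeR 4.0.16 in R 4.3.3 (TMM, filterByExpr with a minimum count of 10, quasi-likelihood test, Benjamini-Hochberg adjustment over all genes at 0.05). Fits were made on the compared groups alone, and all 39 members passed the filter. For 1 member the values are not reported here, and it enters only counts, sums and medians. CPM values use TMM over all 10 biopsies. The test was tried on simulated counts. Alternatives were DESeq2 1.42.0, limma 3.58.1 on log2 values with pseudocounts of 1 and 0.1, other filters and scalings, 1 spread over all biopsies, a block on the replicate number, the Rn45s share, loess (span 0.5) on gene length and each replicate left out. Members named are, for responders against non-responders, up to 3 per part of the enzyme (4 assembly factors) with the smallest p, the 4 with the smallest p for OCA against vehicle, those past the threshold, and those with extreme levels (3 highest, 3 lowest) or spreads (2 and 2), and others are named as examples chosen after their values were seen. Loci and copies (at least 95% identity over 101 bases) come from GENCODE M21, and promoters from RefSeq on GRCm38.p6.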

Additional observations from a re-analysis of the deposited data

Results flagged for a closer look

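In the non-responder group, the only one of 4 or more mice, 5 of 39 members had a mouse far from the other 3 by Dixon's ratio. The nominal rate of this rule is about 1 in 20 for a single gene. The share of all listed genes flagged was not computed and the members are not independent, so the count says nothing particular to complex I. In 4 of the 5 the distant mouse was non-responder 4, the lowest in each case. It had 21.45 CPM of Ndufa12 against 32.3 to 32.9 in the other 3, 13.14 CPM of Ndufa9 against 23.0 to 24.2, 20.54 CPM of Ndufs7 against 26.9 to 27.5, and 1.6 CPM of Ndufa5 against 2.74 to 2.96. Its Rn45s share, 23.5%, was also the highest of its group, and the part of that share in these values was not tested. Ndufaf4 was at 0.1219 CPM in non-responder 2, against 0.653 to 0.734 in the others, on 8 to 41 counts per biopsy.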

How the results depend on the processing

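No member was called for responders against non-responders or for non-responders against vehicle by any of the alternatives. For OCA against vehicle, none was called by edgeR (all genes 1.19%), 6 by DESeq2 (6.15%), 1 by limma on log2(FPKM + 1) (1.7%), 2 with 1 spread over all biopsies (4.38%) and 0 to 1 with a mouse left out. For responders against vehicle, 2 were called by edgeR (all genes 4.52%), 5 by DESeq2 (14.4%), 5 by limma on the authors' log2 values (5.5%), 11 and 9 by limma on log2(FPKM + 1) and log2(FPKM + 0.1) (18.5% and 16.7%), 4 with 1 spread (8.56%), 0 with the Rn45s share as a covariate and 0 to 1 with a mouse left out. With the replicate number as a block, 0 were called. For these fits with the covariate, the block or a mouse left out, the share of all genes called is not given here. A loss of calls among the members therefore cannot be told from a loss among all genes. Mice with the same number did not deviate together (correlations of -0.07 to 0.06), which cannot exclude a pairing, and the block changed no other count of members. The sample titles also carry bracketed codes, whose meaning no source used here gives, and these were not used in a fit.

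The median of the 34 Nduf genes without Ndufaf for responders against non-responders was -0.26 to -0.03 with a mouse left out, -0.295 and -0.35 on the FPKM scales (all genes -0.15 and -0.22), -0.28 with the block, -0.03 after loess on length and 0.11 with the Rn45s covariate. For OCA against vehicle it was -0.10 to 0.26 with a mouse left out, -0.21 and -0.24 on log2(FPKM + 1) and log2(FPKM + 0.1), where the medians of all genes were -0.17 and -0.25, and 0.59 with the Rn45s covariate. In the fits with the block, non-responder 4 has no mouse of the same number in another group, so that mouse adds nothing to the difference.

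The signs that changed were of fold changes that edgeR did not call in the same comparison, although DESeq2 and the fit with 1 spread called Ndufa3 for OCA against vehicle. With the Rn45s covariate and for responders against non-responders, the log2 fold changes of Ndufa4, Ndufa6, Ndufb7, Ndufb9, Ndufs3 and Ndufv2 became 0.081, 0.31, 0.17, 0.21, 0.012 and 0.028. In OCA mice against vehicle, those of Ndufa10, Ndufa3, Ndufa6, Ndufb11, Ndufb9, Ndufs3 and Ndufv2 became 0.91, 0.53, 0.55, 0.65, 0.63, 0.32 and 1.00. The share did not overlap between OCA and vehicle mice, so these values rest on extrapolation. Ndufs1 for responders against non-responders became -0.0061 on the authors' log2 values, -0.18 on both FPKM scales and -0.056 with the block, and Ndufa6 became 0.023 after loess on length. For OCA against vehicle, Ndufb7 became -0.22 and -0.23 on the FPKM scales, -0.0041 with 1 spread and -0.010 after loess, Ndufv1 became -0.021 on both FPKM scales, and with the block Ndufa10 and Ndufv2 became 0.0002 and 0.048. With a mouse left out, the ranges for responders against non-responders were -0.35 to 0.034 (Ndufa4), -0.24 to 0.10 (Ndufa6) and -0.057 to 0.12 (Ndufs1). In OCA mice against vehicle they were -0.29 to 0.068 (Ndufa10), -0.066 to 0.72 (Ndufb4), -0.17 to 0.29 (Ndufb7) and -0.19 to 0.071 (Ndufv2). The cause was not tested.

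Low counts limit Ndufb4, Ndufa11, Ndufaf4 and Ndufs5. They also limit Ndufa2, Ndufaf2, Ndufb2, Ndufb3, Ndufb8 and Ndufc2, each with fewer than 50 counts in its lowest biopsy. Ndufb2, Ndufb3 and Ndufc2 are among the members that were higher without overlap for OCA against vehicle.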
